A study of Mus musculus with 4 samples.

Results

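The S100 proteins are small calcium-binding proteins of the EF-hand type. Most of them act as dimers, and calcium exposes a surface on which they grip partner proteins such as annexins, myosin or receptors. Some stay inside the cell and shape its cytoskeleton and movement, whereas others are released by myeloid cells as danger signals. Described here are 8 S100 genes of mouse chromosome 3, S100a1, S100a4, S100a6, S100a8, S100a9, S100a10, S100a11 and S100a13, out of 23997 genes in the deposited table. They were taken by gene symbol from a list that places myeloid members (S100a8 and S100a9) beside members known from effector T cells (S100a4, S100a6, S100a10 and S100a11). The list was drawn up with the FPKM values of both genotypes already seen, so its members count as selected on the very difference described here, and the differences of these 8 genes are described and not tested.

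The RNA was that of Tfh (follicular helper T) cells, which help B cells to mature in germinal centres, from 13-week-old C57BL/6 mice. There were 2 libraries of Apoe-/- mice, which lack apolipoprotein E and are prone to high plasma cholesterol and atherosclerosis, and 2 libraries of wild-type (WT) mice. All 4 came from lymph nodes and spleens. The comparison addresses how Tfh cells of atherosclerosis-prone mice differ from those of normal mice. The labels used here give neither the sort gate nor the diet, and they do not say whether a library is 1 animal or a pool, so the spread between replicates may be technical.

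Levels are FPKM, read fragments scaled to transcript length and to the mapped fragments of the library, as deposited by the authors. Apoe itself was at 5.09 and 5.21 FPKM in the Apoe-/- libraries and at 145 and 128 FPKM in the WT libraries. The read depth behind the values is unknown. FPKM totals were 533866 and 551289 in Apoe-/- and 522371 and 527056 in WT libraries, and 11181 and 11251 genes in Apoe-/- and 11088 and 11084 genes in WT libraries reached an FPKM of 1. The 9 Tfh and T cell markers examined, among them Cd4, Cxcr5, Bcl6, Pdcd1 and Il21, summed to 1760 to 1798 FPKM in Apoe-/- and 1756 to 1766 FPKM in WT libraries. The sums hide shifts of single markers in opposite directions. Of the 9, 3 were higher in both Apoe-/- libraries than in both WT libraries, 2 were lower and 4 overlapped. Cxcr5 was at 223 and 204 FPKM in Apoe-/- and at 176 and 162 FPKM in WT libraries. Pdcd1 was at 203 and 179 FPKM in Apoe-/- and at 283 and 260 FPKM in WT libraries. Markers of B cells, macrophages and dendritic cells were also present, and their values are given below. In bulk RNA, fewer cells of a type and less RNA per cell cannot be told apart.

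S100a8 and S100a9 encode the subunits of calprotectin, an abundant protein of neutrophils and monocytes that binds zinc and manganese and, once released, acts on the receptors TLR4 and RAGE. S100a8 was at 20.8 and 29.4 FPKM in Apoe-/- libraries and at 2.77 and 2.29 FPKM in WT libraries. Both Apoe-/- libraries were far above both WT libraries, and the mean was 25.1 ± 6.06 FPKM in Apoe-/- and 2.53 ± 0.338 FPKM in WT cells (SD, n = 2 each), a ratio of 9.92. On the log2(FPKM + 1) scale the difference was 2.87 ± 0.19 (SE of the fit). It was 2.53 between the libraries numbered 1 and 3.21 between those numbered 2. Among the 11187 genes tested, those with a mean FPKM of 1 or more, this was the positive difference of rank 6.

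S100a9 was at 21.6 and 28.0 FPKM in Apoe-/- libraries and at 4.57 and 3.06 FPKM in WT libraries. The groups were again well apart, with means of 24.8 ± 4.52 FPKM in Apoe-/- and 3.81 ± 1.06 FPKM in WT cells (SD, n = 2 each), a ratio of 6.50. The log2 difference was 2.43 ± 0.20 (SE), with 2.02 within number 1 and 2.84 within number 2, and it stood at rank 10. For both calprotectin genes Apoe-/- replicate 2 was the higher of its group while WT replicate 2 was the lower, so the differences were larger within number 2. The FPKM ratio of S100a8 to S100a9 was 0.965 and 1.05 in Apoe-/- libraries and 0.607 and 0.749 in WT libraries. The subunit genes were thus at about equal levels per length in the Apoe-/- libraries, whereas S100a9 was the higher in both WT libraries, where both genes were low. Which cells in the libraries carried these transcripts was not tested.

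S100a4, also called metastasin or FSP1, binds non-muscle myosin and promotes cell motility, and it is known from memory and effector T cells as well as from myeloid cells. S100a4 was at 426 and 431 FPKM in Apoe-/- libraries and at 206 and 208 FPKM in WT libraries. Replicates differed very little, and the mean was 429 ± 3.83 FPKM in Apoe-/- and 207 ± 1.06 FPKM in WT cells (SD, n = 2 each), a ratio of 2.07. The log2 difference was 1.05 ± 0.08 (SE), at 1.04 within number 1 and 1.05 within number 2, and it stood at rank 79 of 11187. In FPKM, the S100a4 means lay further apart than those of any other of the 8 genes.

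S100a6, or calcyclin, binds the ubiquitin-ligase adaptor CACYBP and the co-chaperone SUGT1. S100a6 was at 294 and 238 FPKM in Apoe-/- libraries and at 192 and 168 FPKM in WT libraries. The groups did not overlap, although Apoe-/- replicate 2 came closer to the WT libraries than replicate 1. The means were 266 ± 39.2 FPKM in Apoe-/- and 179.8 ± 16.6 FPKM in WT cells (SD, n = 2 each), and the log2 difference was 0.56 ± 0.13 (SE), with 0.61 within number 1 and 0.50 within number 2. The FPKM ratio of S100a4 to S100a6 was 1.45 and 1.81 in Apoe-/- libraries and 1.08 and 1.23 in WT libraries, so that S100a4 exceeded S100a6 in all 4.

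**Figure D1:**
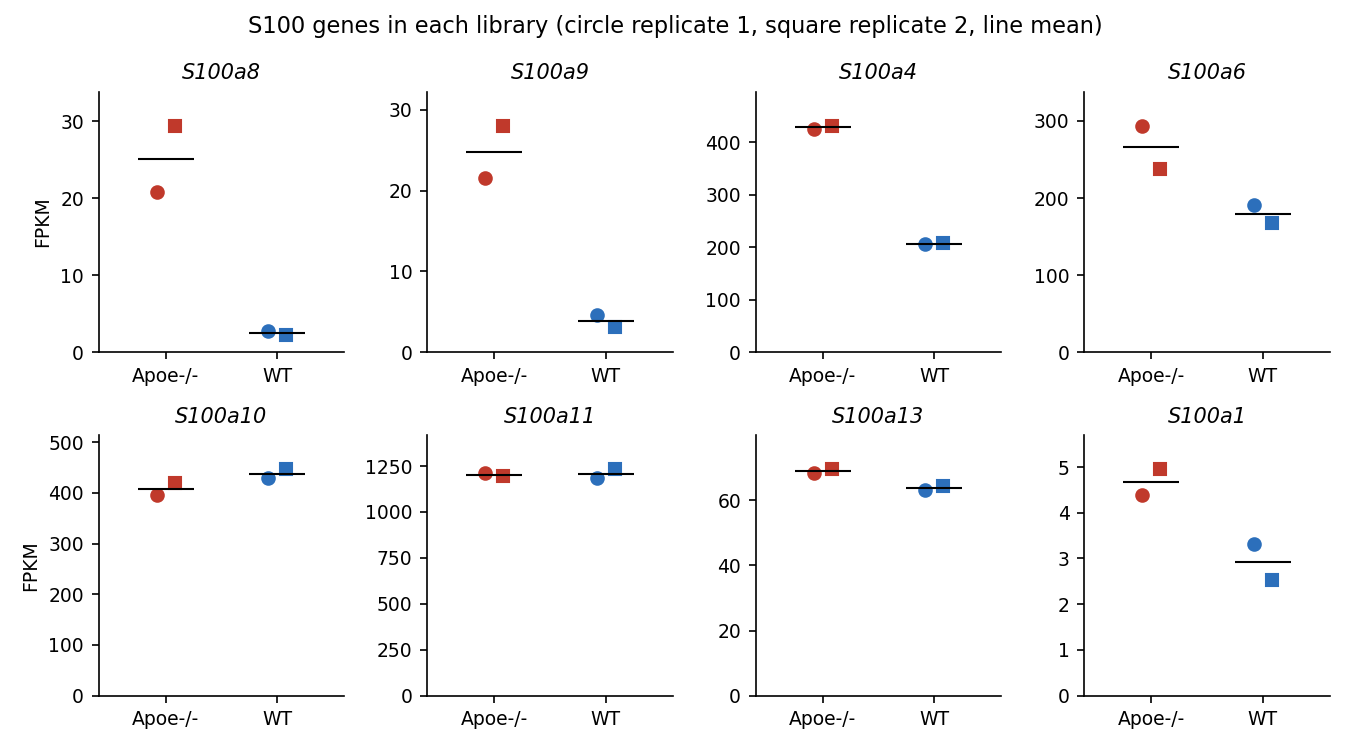
FPKM of each of the 8 S100 genes (vertical axes from 0) in the Apoe-/- libraries in red and the WT libraries in blue; replicate 1 is a circle, replicate 2 a square, and the line is the group's mean. S100a8 (25.1 against 2.53 FPKM), S100a9 and S100a4 (429 against 207 FPKM) stand apart by genotype, whereas the S100a11 values overlap.

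The stretches of 250 bases before the annotated start sites are shown for S100a8, S100a9 and S100a4, which differed most between the genotypes, and for S100a11, which is the most abundant and hardly differed. Capitals mark matches to 4 motifs, TATAAA (the TATA box), TTGCNNAA (a C/EBP site, bound by regulators of myeloid genes), TGANTCA (an AP-1 site) and GGGCGG (a GC box), each searched on both strands.
S100a8, chr3:90668821-90669070, plus strand: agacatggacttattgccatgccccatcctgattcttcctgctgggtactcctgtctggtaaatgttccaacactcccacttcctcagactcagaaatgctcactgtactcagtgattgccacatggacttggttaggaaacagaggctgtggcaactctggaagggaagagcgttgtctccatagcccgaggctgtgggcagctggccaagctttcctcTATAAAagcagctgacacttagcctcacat
S100a9, chr3:90695722-90695971, minus strand: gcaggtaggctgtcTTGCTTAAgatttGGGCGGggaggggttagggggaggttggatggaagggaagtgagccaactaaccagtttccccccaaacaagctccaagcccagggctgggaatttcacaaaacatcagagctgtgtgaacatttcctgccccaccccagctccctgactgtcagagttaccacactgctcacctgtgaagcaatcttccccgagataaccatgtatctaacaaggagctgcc
S100a4, chr3:90603520-90603769, plus strand: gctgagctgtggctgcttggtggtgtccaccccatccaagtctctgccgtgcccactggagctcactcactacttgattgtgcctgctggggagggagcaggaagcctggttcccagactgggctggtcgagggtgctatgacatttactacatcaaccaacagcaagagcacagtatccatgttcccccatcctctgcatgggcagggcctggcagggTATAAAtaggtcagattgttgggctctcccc
S100a11, chr3:93520246-93520495, plus strand: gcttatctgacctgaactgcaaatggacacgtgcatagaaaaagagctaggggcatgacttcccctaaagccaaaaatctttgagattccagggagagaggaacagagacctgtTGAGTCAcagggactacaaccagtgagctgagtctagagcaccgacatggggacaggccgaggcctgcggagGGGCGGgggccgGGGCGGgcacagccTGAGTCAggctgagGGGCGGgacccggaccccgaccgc
The sequences are RefSeq's for GRCm38.p6, which gave a stretch for 7 of the 8 genes. Over the full window of 300 bases, which also holds the first 50 bases after the start site, TATAAA was found in S100a8 at -30 to -25, in S100a4 at -31 to -26 and in S100a9 at 1 to 6 after the annotated start, and in none of S100a1, S100a6, S100a11 and S100a13. It occurs in 13.6% of 32851 such windows. S100a9 also held the C/EBP motif at -236 to -229, a motif in 10.8% of windows, and a GC box at -223 to -218. S100a11 held the AP-1 motif at -136 to -130 and again at -38 to -32, a motif in 7.81% of windows, and 3 GC boxes, a motif in 35.7%. S100a1, S100a6 and S100a13 held none of the 4 motifs. A match describes the letters and is not a shown binding site.

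S100a10 and S100a11 were the members with the smallest differences relative to their level, although both are counted with S100a4 and S100a6 among genes of effector T cells. S100a10, or p11, has lost calcium binding and forms a complex with annexin A2 at the plasma membrane. S100a10 was at 395 and 420 FPKM in Apoe-/- libraries and at 430 and 446 FPKM in WT libraries, the only one of the 8 genes whose Apoe-/- libraries both lay below both WT libraries. The means were 408 ± 17.9 FPKM in Apoe-/- and 438 ± 11.6 FPKM in WT cells (SD, n = 2 each), with a log2 difference of -0.10 ± 0.08 (SE). Anxa2, the gene of its partner annexin A2, was at 156 and 158 FPKM in Apoe-/- and at 126 and 126 FPKM in WT libraries (log2 difference 0.31 ± 0.08, limma adjusted p = 0.135). The FPKM ratio of S100a10 to Anxa2 was therefore lower in both Apoe-/- libraries, at 2.54 and 2.67, than in WT libraries, at 3.40 and 3.55.

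S100a11, which binds annexin A1, was the most abundant of the 8 genes and one of the most abundant of the whole transcriptome. S100a11 was at 1212 and 1193 FPKM in Apoe-/- libraries and at 1186 and 1232 FPKM in WT libraries, and the WT libraries enclosed the Apoe-/- ones. It ranked 75 and 79 among 23997 genes in Apoe-/- and 74 and 67 in WT libraries. The means were 1203 ± 13.1 FPKM in Apoe-/- and 1209 ± 32.4 FPKM in WT cells (SD, n = 2 each), and the log2 difference of -0.01 ± 0.07 (SE) was smaller than its error and had opposite signs within number 1 (0.03) and number 2 (-0.05). An annotated pseudogene, S100a11-ps on chromosome 12, is not a row of the table, and whether its reads were counted with S100a11 was not tested.

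S100a13, which takes part in the release of the leaderless proteins FGF1 and interleukin-1 alpha, was at 68.5 and 69.5 FPKM in Apoe-/- libraries and at 63.1 and 64.3 FPKM in WT libraries. The groups did not overlap, yet the shift was small, with a log2 difference of 0.11 ± 0.09 (SE). S100a1, best known from heart and skeletal muscle, where it acts on the ryanodine receptor and the calcium pump SERCA, was the least abundant of the 8 genes in Apoe-/- cells. S100a1 was at 4.38 and 4.95 FPKM in Apoe-/- libraries and at 3.32 and 2.53 FPKM in WT libraries, a log2 difference of 0.54 ± 0.15 (SE) with 0.32 within number 1 and 0.75 within number 2. The annotated spans of S100a1 and S100a13 overlap by 98 bases on opposite strands, and no strand setting is given in the sources used here, so reads from the overlap cannot be assigned with certainty.

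**Figure D2:**
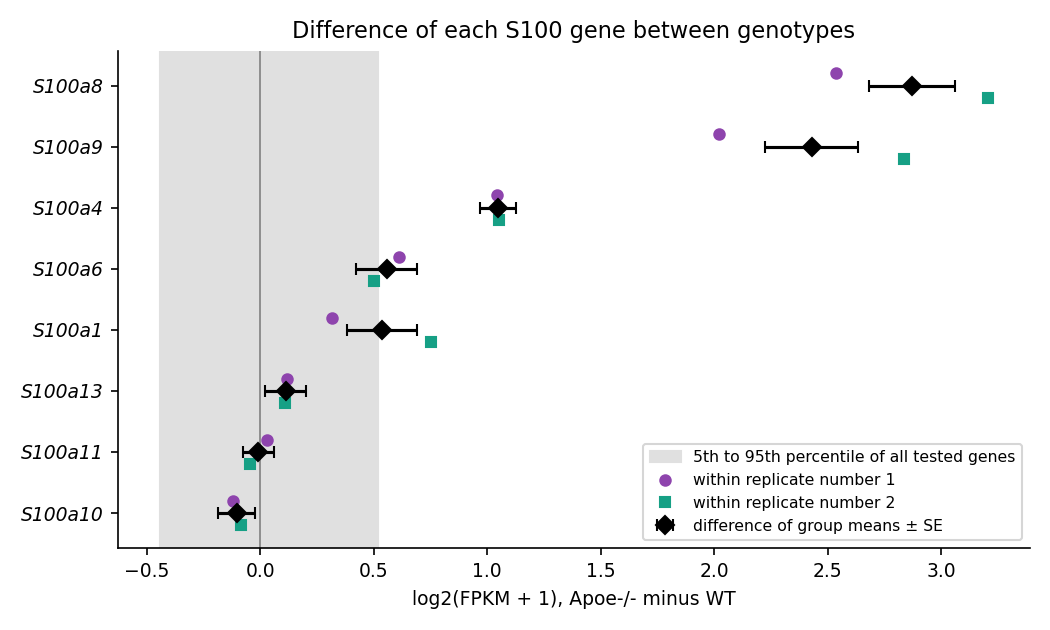
Apoe-/- minus WT on the log2(FPKM + 1) scale, gene by gene for the 8 S100 genes (diamonds with SE bars), with the difference within replicate number 1 (circles) and number 2 (squares); the grey band holds the 5th to 95th percentile of all tested genes, -0.44 to 0.52. The diamonds of S100a8 (2.87), S100a9 (2.43) and S100a4 (1.05) lie beyond the band and those of S100a6 (0.56) and S100a1 (0.54) just beyond it. Those of S100a13, S100a11 and S100a10 lie inside it. The band is for differences of group means, so the circles and squares, from 1 library per genotype, do not compare with it.

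Over the 8 genes the median log2 difference was 0.55, beside 0.00 over all 11187 tested genes, with 0.46 within number 1 and 0.63 within number 2. In 6 genes both Apoe-/- libraries were above both WT libraries, in 1 they were below and in 1 the groups overlapped, while the groups did not overlap for 50.4% of all tested genes, 27.5% with Apoe-/- higher and 22.9% with Apoe-/- lower. By limma over all genes 3 of the 8 (S100a4, S100a8 and S100a9) were past an adjusted p of 0.05 and higher, as were 0.948% of tested genes. None of the 8 was past it and lower, as 0.885% of tested genes were; either way it was 3 of 8, beside 1.83% of tested genes. With no adjustment, 5 of the 8 were under a p of 0.05 and higher and 0 lower, while 11.6% of all tested genes were higher and 8.27% lower at that threshold. Since the list was drawn up with this comparison known, nothing is read from these shares. All 8 had a mean of 1 FPKM or more in the WT libraries alone, so none entered only through the group in which it was higher.

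The order of the levels differed between the genotypes. In Apoe-/- cells it ran from S100a11 through S100a4, S100a10, S100a6, S100a13, S100a8 and S100a9 to S100a1, and only the ranges of S100a8 and S100a9 overlapped among neighbours. In WT cells it ran from S100a11 through S100a10, S100a4, S100a6, S100a13, S100a9 and S100a1 to S100a8, where the last 3 overlapped with their neighbours. S100a4 thus stood above S100a10 in both Apoe-/- libraries and below it in both WT libraries. S100a8 stood at rank 4338 and 3330 of all genes in Apoe-/- libraries and at rank 9736 and 10021 in WT libraries. Levels of different genes compare only as far as the transcript lengths used by the authors hold, and the annotated coding transcripts of S100a8, for instance, are 486 nucleotides long.

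The summed level of the 8 genes was 2442 and 2415 FPKM in Apoe-/- libraries and 2087 and 2126 FPKM in WT libraries. S100a4 made up 17.4% and 17.9% of that sum in Apoe-/- libraries and 9.87% and 9.76% in WT libraries. S100a11 made up 49.6% and 49.4% in Apoe-/- libraries and 56.8% and 57.9% in WT libraries, although its own level was about the same. S100a8 and S100a9 remained minor, at 0.854% to 1.22% each in Apoe-/- libraries and 0.108% to 0.219% each in WT libraries.

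**Figure D3:**
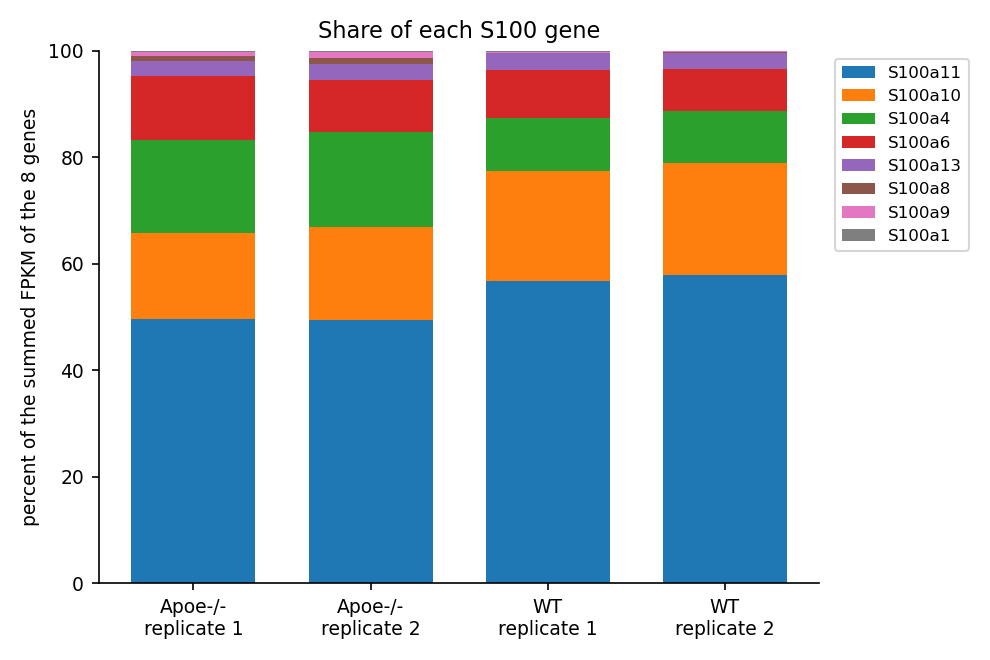
Percent of the summed FPKM of the 8 S100 genes taken by each gene in the Apoe-/- libraries (left bars) and the WT libraries (right bars). The S100a4 share is 17.4% and 17.9% in Apoe-/- and 9.87% and 9.76% in WT libraries, and S100a11 holds the largest share in all 4.

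The 8 genes lie in separate parts of chromosome 3 (GRCm38, the assembly also called mm10). S100a1 (90511034 to 90514330) and S100a13 (90514233 to 90524581) stand head to head, followed by S100a4 (90603770 to 90606045), S100a6 (90612894 to 90614414), S100a8 (90669071 to 90670034) and S100a9 (90692630 to 90695721). S100a11 (93520496 to 93526288) and S100a10 (93555117 to 93564645) form a second part, 2825 kb beyond S100a9. The 5 genes with the largest differences all belong to the first part, S100a13 being its member with the smallest. The gap between S100a4 and S100a6 is 6.85 kb and holds S100a5, and that between S100a8 and S100a9 is 22.6 kb. Of 37 other genes within 0.5 Mb of a member, 15 were tested and 0 passed in limma (at an unadjusted p under 0.05, 0 were higher and 1 was lower), with a median log2 difference of 0.00. The shares over all tested genes were 0.948% higher and 0.885% lower after adjustment, and 11.6% and 8.27% without it. The tested neighbours, such as Chtop, Ilf2, Snapin and Tpm3, all lie before the first part on the chromosome, so none flanks S100a10 and S100a11.

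**Figure D4:**
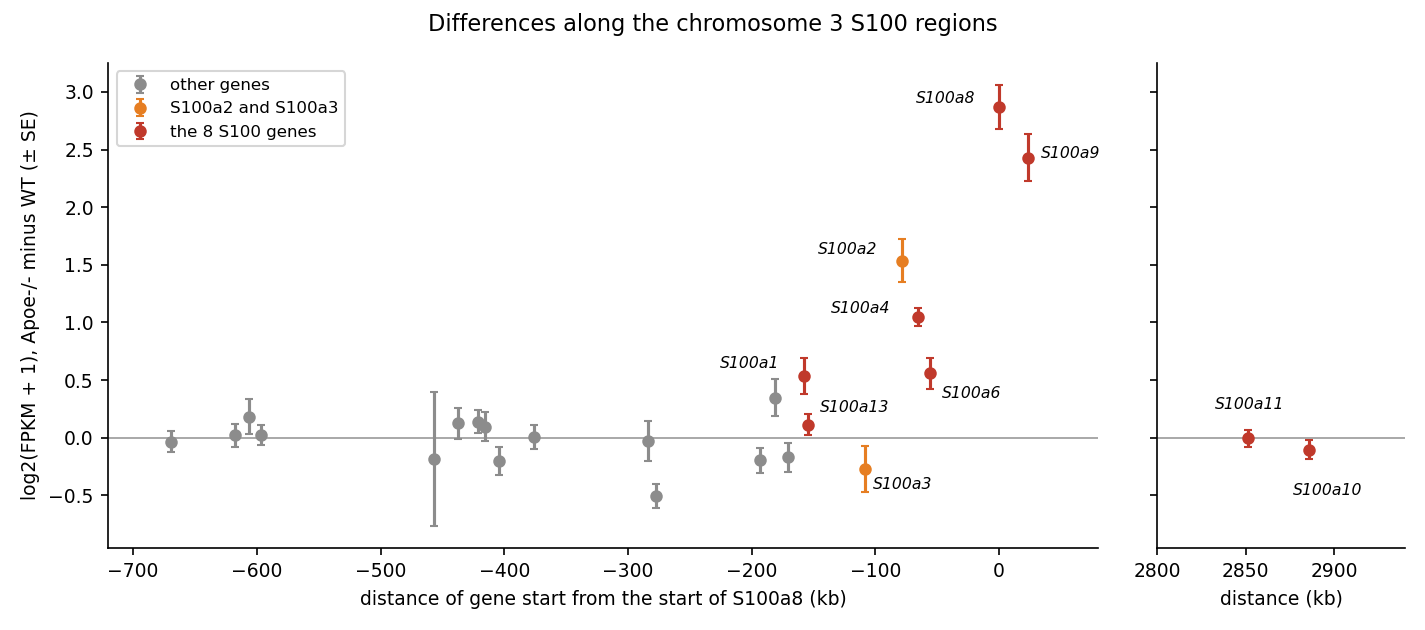
Difference of log2(FPKM + 1), Apoe-/- minus WT (bars are SE), against the distance of each tested gene's start from the start of S100a8 in kb, for the 8 S100 genes (red), S100a2 and S100a3 (orange) and other genes within 0.5 Mb (grey); the right panel holds S100a11 and S100a10. The 15 grey genes lie between -0.51 (Ints3) and 0.35 (Snapin), below S100a8 (2.87), S100a9 (2.43) and S100a4 (1.05).

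The table holds 10 other S100 genes, and 9 of them stayed under 2 FPKM in every library. They are S100a3, S100a5, S100a7a, S100a14, S100a16, S100b, S100g, S100z and 9130204L05Rik, an older name of S100a7l2; S100g and 9130204L05Rik are listed at 0 throughout. Only S100a2 and S100a3 had the mean FPKM of 1 needed for testing. S100a2, singled out after its values were seen, was at 1.96 and 2.57 FPKM in Apoe-/- libraries and at 0.254 and 0 FPKM in WT libraries. It reached that mean only through the Apoe-/- libraries, and its log2 difference was 1.54 ± 0.19 (SE, limma adjusted p = 0.0303), and the call ended with a pseudocount of 0.1 (adjusted p = 0.0723) and with no filter (0.0615), over a range of 9.63e-05 to 0.0723. The S100a2 span lies within that of S100a3, so their reads are hard to separate, and S100a3 was at 0.789 and 1.53 FPKM in Apoe-/- and at 1.52 and 1.61 FPKM in WT libraries (adjusted p = 0.510).

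The genes whose pattern over the 4 libraries was closest to that of S100a8 were ranked by the Euclidean distance of centred log2(FPKM + 1) values, without other S100 genes. They were Mir8119, Chil3, Igsf23, Irgc1 and Retnlg, at distances of 0.485, 0.499, 0.553, 0.711 and 0.822, while S100a9 stood at 0.486. Only tested genes were ranked. Mir8119, Chil3, Irgc1 and Retnlg had means under 1 FPKM in WT libraries, so they entered the ranking only through the Apoe-/- libraries. Chil3, which encodes a secreted chitinase-like lectin (Ym1) of myeloid cells, was at 4.30 and 5.30 FPKM in Apoe-/- libraries and at 0.144 and 0.0469 FPKM in WT libraries. Retnlg, a resistin-like protein of neutrophils, was at 3.67 and 4.80 FPKM in Apoe-/- libraries and at 0.124 and 0.297 FPKM in WT libraries. Mir8119 has an annotated span of only 129 bases and was at 8.19 and 9.09 FPKM in Apoe-/- libraries and listed at 0 in both WT libraries. Igsf23 (31.4 FPKM in Apoe-/- and 3.96 FPKM in WT) and Irgc1 (5.92 and 0.229 FPKM) lie on chromosome 7, as Apoe does. Igsf23 spans 19937305 to 19953654 and Irgc1 24431919 to 24445682, and whether their place on that chromosome bears on their levels was not tested.

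Closest to S100a4 were Cpt1a, Mcoln2, Ccl5, Cirbp and Itgax, at distances of 0.0197, 0.0926, 0.106, 0.107 and 0.111. Cpt1a, the gene of the carnitine transferase that commits fatty acids to mitochondrial oxidation, was at 75.0 and 75.8 FPKM in Apoe-/- and at 36.4 and 36.4 FPKM in WT libraries. Ccl5, a chemokine of effector and memory T cells, was at 222 and 208 FPKM in Apoe-/- and at 110 and 106 FPKM in WT libraries. Itgax, the CD11c integrin of dendritic cells, was at 9.12 and 9.15 FPKM in Apoe-/- and at 3.84 and 3.49 FPKM in WT libraries. S100a6, in contrast, stood at a distance of 0.558 from S100a4. With 4 libraries in 2 groups, a short distance mostly reflects a like difference between the genotypes.

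Markers of neutrophils bear on the calprotectin genes. Of 20 markers 19 were found, 11 stayed under 1 FPKM in every library and Camp and Elane are listed at 0 in all 4. In 9 of the 19 both Apoe-/- libraries lay above both WT libraries, in 1 (Il1r2) they lay below, and 9 overlapped or were at 0. Of all tested genes 27.5% lay above and 22.9% below in this way, although only 6 of the 19 markers were tested. Among the granule genes, Ngp, Ltf and Mpo stayed under 0.05 FPKM in every library, whereas Lcn2 was at 0.817 and 0.976 FPKM in Apoe-/- and at 0.132 and 0.438 FPKM in WT libraries. Mmp8 was at 0.243 and 0.199 FPKM in Apoe-/- and at 0.0448 and 0 FPKM in WT libraries, and Mmp9 was at 1.36 and 1.21 FPKM in Apoe-/- and at 0.587 and 0.533 FPKM in WT libraries. Of 6 tested markers 3 rose (Chil3, Retnlg and Csf3r) and 0 fell, beside 0.948% and 0.885% of all tested genes. Chil3, Retnlg and Fpr2, however, had means under 1 FPKM in WT libraries, so 3 of the 6 tested markers entered the test only through the Apoe-/- group. Chil3 differed by 2.40 ± 0.15 (SE, limma adjusted p = 0.00802) and Retnlg by 2.11 ± 0.17 (adjusted p = 0.0142) on the log2 scale. Csf3r, the receptor of the neutrophil growth factor G-CSF, was at 3.24 and 3.68 FPKM in Apoe-/- and at 1.39 and 1.23 FPKM in WT libraries (0.95 ± 0.13, adjusted p = 0.0432). The Csf3r call ended with no filter (adjusted p = 0.0858) and on leaving out WT replicate 1 (0.0709) or WT replicate 2 (0.121). Il1r2, which follicular regulatory T cells also express, was at 51.7 and 51.9 FPKM in Apoe-/- and at 64.6 and 64.5 FPKM in WT libraries and made up most of the list's sum of 70.9 to 73.1 FPKM in Apoe-/- and 70.4 to 70.5 FPKM in WT libraries. Without it, an exception made after the values were seen, the sum was 19.2 to 21.2 FPKM in Apoe-/- and 5.91 to 5.94 FPKM in WT libraries. The part of neutrophil transcripts in the S100a8 and S100a9 differences was not tested.

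**Figure D5:**
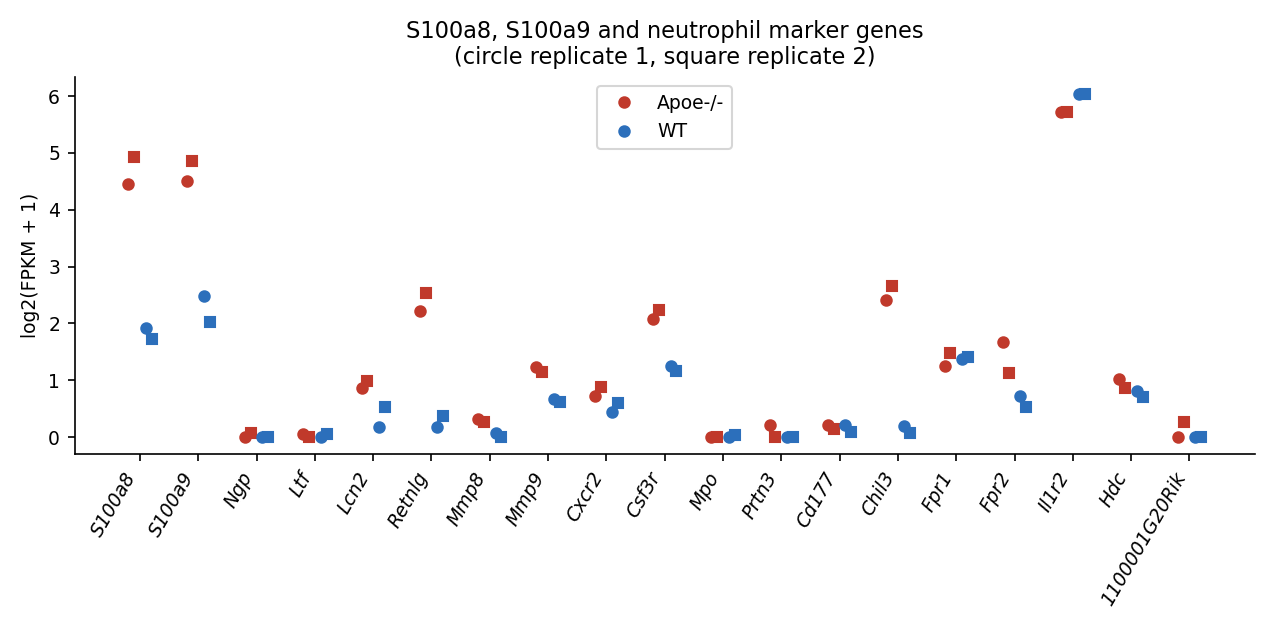
log2(FPKM + 1) of S100a8, S100a9 and the 17 neutrophil markers above 0 in at least 1 library, in Apoe-/- (red) and WT (blue); circles are replicate 1 and squares replicate 2. In 9 markers (Lcn2, Retnlg, Mmp8, Mmp9, Cxcr2, Csf3r, Chil3, Fpr2 and Hdc) both Apoe-/- libraries lie above both WT libraries, and in Il1r2 they lie below. Of all tested genes 27.5% lie above and 22.9% below in this way.

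Markers of monocytes and macrophages, the other main source of calprotectin, summed to 522 to 540 FPKM in Apoe-/- and 402 to 424 FPKM in WT libraries, with none of 20 at 0 throughout. Of the 20 tested 2 rose and 0 fell, or 1 and 0 without either WT library (at an unadjusted p under 0.05, 11 were higher and 0 lower, beside 11.6% and 8.27% of all tested genes), and the median log2 difference was 0.40. Vsig4, a complement receptor of tissue macrophages, was at 2.25 and 4.72 FPKM in Apoe-/- and at 0.148 and 0 FPKM in WT libraries (adjusted p = 0.0434, and 0.0945 with no filter), and it reached the mean FPKM of 1 needed for testing only through the Apoe-/- libraries. Tyrobp, a signalling adaptor of myeloid and NK cells, was at 78.6 and 80.1 FPKM in Apoe-/- and at 52.9 and 49.1 FPKM in WT libraries (0.63 ± 0.10, adjusted p = 0.0494). The Tyrobp call ended in all but 1 of 11 alternatives, among them each of the 4 with a library left out (in limma, leaving out WT replicate 1 gave an adjusted p of 0.132, and leaving out WT replicate 2 gave 0.239). Defining genes such as Csf1r (30.0 and 28.7 FPKM in Apoe-/-, 25.1 and 23.7 FPKM in WT) and Lyz2 (43.2 and 48.4 FPKM in Apoe-/-, 29.9 and 31.7 FPKM in WT) did not pass (adjusted p = 0.249 and 0.0836), and their part in the S100 differences was not tested.

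Among the receptors and signalling genes of calprotectin, 0 of 8 passed in limma (at an unadjusted p under 0.05, 1 was higher and 1 lower), with a median log2 difference of 0.05. After adjustment 0.948% of all tested genes were higher and 0.885% lower, and without it 11.6% and 8.27%. Tlr4, the receptor through which calprotectin activates myeloid cells, was at 1.55 and 1.78 FPKM in Apoe-/- and at 1.48 and 1.74 FPKM in WT libraries (adjusted p = 0.932). Ager, the gene of RAGE, was at 6.09 and 5.29 FPKM in Apoe-/- and at 2.83 and 2.87 FPKM in WT libraries (log2 difference 0.80, adjusted p = 0.0546, with a range of 0.00695 to 0.173 over the alternatives). Ly96, the TLR4 co-receptor MD-2 (5.94 and 12.2 FPKM in Apoe-/-, 8.70 and 11.4 FPKM in WT) ), and Cd14, which hands ligands to TLR4 (3.31 and 3.59 FPKM in Apoe-/-, 3.36 and 2.30 FPKM in WT), overlapped between the groups. Myd88, the adaptor of TLR4, was at 42.2 and 43.8 FPKM in Apoe-/- and at 41.5 and 40.3 FPKM in WT libraries (adjusted p = 0.717). Cd69 encodes a surface receptor on T cells, reported to bind calprotectin in human cells. It was at 102 and 135 FPKM in Apoe-/- and at 186 and 227 FPKM in WT libraries (limma adjusted p = 0.0962).

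Of the genes of intracellular S100 partners 10 of 15 were tested and 0 passed in limma (at an unadjusted p under 0.05, 3 were higher and 1 lower), with a median of 0.09. Of all tested genes 0.948% were higher and 0.885% lower after adjustment, and 11.6% and 8.27% without it. Anxa1, the partner of S100A11, was at 1.54 and 2.95 FPKM in Apoe-/- and at 1.10 and 1.33 FPKM in WT libraries (adjusted p = 0.301), far below S100a11 itself. Anxa6, an annexin bound by several S100 proteins, was at 96.7 and 100.7 FPKM in Apoe-/- and at 70.3 and 68.5 FPKM in WT libraries (0.50 ± 0.09, adjusted p = 0.0732). Myh9, the myosin heavy chain bound by S100A4, was at 186 and 172 FPKM in Apoe-/- and at 205 and 194 FPKM in WT libraries (adjusted p = 0.405), while the S100a4 mean was 2.07 times as high in Apoe-/- as in WT cells. Cacybp, the partner of S100A6, was at 30.3 and 36.1 FPKM in Apoe-/- and at 40.8 and 59.9 FPKM in WT libraries (adjusted p = 0.214).

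Of 18 tested genes of effector and memory T cells 7 rose and 0 fell (3 without WT replicate 1 and 4 without WT replicate 2), beside 0.948% and 0.885% of all tested genes, and 11 did not pass. In 12 both Apoe-/- libraries lay above both WT libraries, in 1 (Cxcr6) below, and in 5 the groups overlapped, with a median log2 difference of 0.38. Of all tested genes 27.5% lay above and 22.9% below in this way. The list was chosen with earlier results of these data known, so nothing is read from these shares. Il18rap, the accessory chain with which the IL-18 receptor signals, was at 8.05 and 9.82 FPKM in Apoe-/- and at 2.29 and 2.48 FPKM in WT libraries (1.55 ± 0.14, adjusted p = 0.0148, and 0.0560 with no filter). Nkg7, a cytotoxic granule protein, was at 54.6 and 52.8 FPKM in Apoe-/- and at 24.1 and 20.3 FPKM in WT libraries (1.24 ± 0.12, adjusted p = 0.0185), and its call held in all 11 alternatives, as did that of Ccl5 (0.99 ± 0.09, adjusted p = 0.0148). Il18r1 (19.3 ± 3.83 FPKM in Apoe-/- and 7.80 ± 1.11 FPKM in WT, adjusted p = 0.0450) and Lgals3, or galectin-3 (19.2 ± 1.10 and 9.35 ± 0.874 FPKM, adjusted p = 0.0325), also rose. Without WT replicate 1 these had adjusted p = 0.0835 for Il18r1 and 0.0544 for Lgals3, and without WT replicate 2 Lgals3 had 0.105. With no filter they had 0.101 and 0.0767, and with a mean FPKM of 5 or more Il18r1 had 0.0541.

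The first genes of this list that did not pass include some often found with S100a4 and S100a6 in effector T cells. Lgals1, or galectin-1, was at 294 and 254 FPKM in Apoe-/- and at 222 and 199 FPKM in WT libraries (adjusted p = 0.159). Crip1, a LIM domain protein, was at 276 and 256 FPKM in Apoe-/- and at 205 and 203 FPKM in WT libraries (adjusted p = 0.104). Vim, the gene of vimentin, was at 143 and 141 FPKM in Apoe-/- and at 122 and 120 FPKM in WT libraries (adjusted p = 0.223). Itgb1, the integrin beta-1 chain, was at 182 and 244 FPKM in Apoe-/- and at 154 and 193 FPKM in WT libraries (adjusted p = 0.431), and its groups overlapped.

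Other cell types were followed by whole marker lists. B cell markers summed to 182 to 192 FPKM in Apoe-/- and 309 to 315 FPKM in WT libraries (median of the list -0.76). At an unadjusted p under 0.05 in limma 8 of 8 were lower and 0 higher, beside 8.27% and 11.6% of all tested genes. After adjustment 4 of 8 fell, among them Fcer2a, Cr2 and Cd22, beside 0.885% of all tested genes. Leaving out WT replicate 1 left 2 of these calls and leaving out WT replicate 2 left 1. Dendritic cell markers summed to 19.3 to 21.1 FPKM in Apoe-/- and 9.28 to 10.03 FPKM in WT libraries, and 1 of 5 tested rose (Itgax, adjusted p = 0.0198, but 0.0571 without WT replicate 2 and 0.0672 with no filter). At an unadjusted p under 0.05 in limma 4 of the 5 dendritic cell markers were higher and 0 lower. Zbtb46, 1 of the 5, had a mean of 0.949 FPKM in WT libraries and so was tested only through the Apoe-/- libraries. Of all tested genes 0.948% rose after adjustment. The CD8 T and NK cell list, whose cell types likewise express S100a4 and Ccl5, summed to 26.6 to 30.3 FPKM in Apoe-/- and 20.1 to 20.7 FPKM in WT libraries. Its median was 0.34, with 0 of 6 tested passing in limma (at an unadjusted p under 0.05, 3 were higher and 0 lower). Platelet markers summed to 1.00 to 2.08 FPKM in Apoe-/- and 0.913 to 1.16 FPKM in WT libraries. Of the 9 Tfh and T cell markers 0 passed (2 were higher and 1 lower at an unadjusted p under 0.05), with a median of 0.06. Cxcr5 differed by 0.33 ± 0.10 (SE, limma adjusted p = 0.153) and Pdcd1 by -0.50 ± 0.10 (adjusted p = 0.0887) on the log2 scale. The part of any of these cell types in the S100a4 and S100a6 differences was not tested.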

How the data were processed

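The authors deposited a table of FPKM per gene symbol for 4 libraries, and all 4 sample columns were used. Per the submitters' processing notes, the build is mm10, and the tools named are TopHat2 2.0.13, CASAVA 1.8.2 and Cuffdiff 2.2.0. The sources used here give no gene annotation, strand setting or filter. Rows were split on white space because 2 rows (Bcl6 and Cxcr5) hold a space in place of a tab.

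Genes averaging at least 1 FPKM across libraries (11187) entered the fit, on the log2(FPKM + 1) scale. Apoe-/- was set against WT in limma 3.58.1 under R 4.3.3 by a two-sided test with a mean-variance trend. Benjamini-Hochberg adjustment ran across the 11187 genes, and calls were made at 0.05. As separate animals or cultures are not stated, p-values measure only the spread between these libraries. The log2(FPKM + 1) scale understates the change of low genes. The fit was also run on simulated libraries with independent noise, a check of the computation and not of the calls made here. With 2 libraries a group an exact permutation test reaches no p under 0.333 and was left out. Alternatives changed the pseudocount, filter, scaling, variance trend, replicate block and libraries kept.

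The 8 genes, the gene lists and the rule for named genes were chosen with earlier results of these data known. Nothing is therefore read from the counts of list members set beside the shares of all tested genes. The rule names every S100 gene listed, passing members of each list (at most 5 a direction), up to 4 others by list order, and the 5 genes nearest to S100a8 and S100a4. Outside the rule, S100a2, Ager, Cd69, Myh9, Cacybp, Il1r2, Lcn2, Mmp8, Mmp9, Mpo, Ints3 and Snapin were named after their values were seen. Emr1, Fpr2, Marco, Ms4a7, Pdcd1 and Sh2d1a were likewise named outside it. A marker list for neutrophils includes Ly6g, not analysed here. Positions come from RefSeq (GRCm38.p6) by symbol. A planned comparison of protein sequences was not run.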

Additional observations from a re-analysis of the deposited data

How the results depend on the processing

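The log2 differences of S100a4, S100a8 and S100a9 kept their sign in all 11 alternatives, the first ranging from 1.00 to 1.06 and S100a8 from 2.63 to 3.25, and those of S100a1, S100a6, S100a10 and S100a13 also kept theirs, while S100a11 ran from -0.06 to 0.02. Leaving out 1 library at a time gave 54 to 317 genes higher and 61 to 301 lower over all tested genes (106 and 99 with all libraries), a median S100 difference of 0.43 to 0.67, and these counts in the lists: binding partners 0 to 1 higher, calprotectin receptors and signalling 0 to 2 higher and 0 to 1 lower, monocytes and macrophages 1 to 3 higher, effector and memory T cells 3 to 8 higher, B cells 1 to 6 lower, dendritic cells 0 to 4 higher, CD8 T and NK cells 0 to 1 higher, and neighbouring genes 0 to 1 lower. A lone library was then assumed to vary like the other group. With no filter 35 genes were higher and 41 lower, and the lists had 0 higher for monocytes and macrophages, 2 for effector and memory T cells and 0 for dendritic cells, and 1 lower for B cells. With a mean FPKM of 5 or more 51 genes were higher, with 0 neutrophil and 0 monocyte and macrophage markers, where fewer genes are tested. Monocyte and macrophage markers had 1 higher with a pseudocount of 0.1, with either rescaling and with no variance trend. Dendritic cell markers had 2 higher with either rescaling and with no trend, and calprotectin receptors 1 with no trend. The causes were not tested. Taken on FPKM + 1, the ratio of S100a8 to S100a9 was 0.966 and 1.05 in Apoe-/- libraries and 0.677 and 0.810 in WT libraries. Rescaling to one FPKM total moved the median of all genes by less than 0.1, to -0.04.

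Equal replicate numbers are not tied to an animal or day by the labels, and the deviations of equal-numbered libraries correlated at 0.214 across tested genes. With the number as a block, 1908 genes were higher and 1776 lower, and 5 S100 genes were higher and 1 lower. The lists then had 3 higher and 2 lower for binding partners, 1 and 1 for calprotectin receptors, and 4 higher and 1 lower for neutrophils. They had 13 higher for monocytes and macrophages, 13 for effector and memory T cells, and 3 higher and 1 lower for Tfh and T cells. There were 8 lower for B cells, 4 higher for dendritic cells, 3 higher for CD8 T and NK cells, and 1 higher and 4 lower for neighbouring genes. Read depth is unknown, so the precision of low genes such as S100a1 rests on the replicates alone.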
